A study of Mus musculus with 4 samples.

Results

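The oocyte NLRP genes are 10 mouse genes, Nlrp2, Nlrp4a, Nlrp4b, Nlrp4c, Nlrp4e, Nlrp4f, Nlrp5, Nlrp9a, Nlrp9b and Nlrp14. They were taken by name from a table of 21958 genes measured by RNA sequencing of whole mouse ovary, and all 10 were found. The ++Oxtr libraries, replicates 3 and 4, came from mice whose genotype is labelled tg and which, by the series title, overexpress the oxytocin receptor gene Oxtr. They were set against WT (wild-type) replicates 5 and 6. All females were in diestrus, the quiet phase of the estrous cycle. The sources used here do not give the promoter or tissue range of the transgene, the strain or the age, nor do they say whether each library came from its own animal. A p-value here thus reflects the variation among 4 libraries and may be of technical origin alone.

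NLRP proteins are built from a pyrin domain, a nucleotide-binding NACHT domain and a run of leucine-rich repeats. Some members, such as NLRP3, sense damage or infection and assemble inflammasomes in immune cells. Another branch of the family has expanded in rodents and is transcribed mainly in oocytes, where the proteins are stored for use after fertilisation. NLRP5, also called MATER, is a core protein of the subcortical maternal complex, a structure under the oocyte membrane that the early mouse embryo needs. NLRP2 and NLRP4F associate with the same complex. NLRP9B has a known separate role in mouse gut epithelium, where it forms an inflammasome against rotavirus. Growing oocytes in follicles are the usual ovarian source of these transcripts.

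The members fall into close and distant relatives, and this sets how well their reads can be told apart. Coding sequences from GENCODE release M21 (GRCm38) ran from 2589 bases in Nlrp4b to 3333 bases in Nlrp5. Within the Nlrp4 group the 10 pairs were identical at 77.0% to 93.9% of aligned bases, and Nlrp9a and Nlrp9b at 83.7%. The 34 other pairs were identical at 52.7% to 59.9%. Nlrp4c and Nlrp4e were the closest of all pairs. Their first 120 coding bases are shown because these genes had the lowest levels of the family and the largest shares of sequence in common with other genes, with the 9 differing bases in capitals.
Nlrp4c: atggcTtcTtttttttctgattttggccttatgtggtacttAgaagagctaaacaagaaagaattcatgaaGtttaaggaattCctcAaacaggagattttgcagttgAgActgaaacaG
Nlrp4e: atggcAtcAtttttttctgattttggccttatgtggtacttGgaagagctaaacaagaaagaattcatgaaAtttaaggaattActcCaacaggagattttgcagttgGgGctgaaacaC

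The next 120 coding bases, positions 121 to 240 in both genes, were identical between Nlrp4c and Nlrp4e, the longest run they share.
Shared by Nlrp4c and Nlrp4e: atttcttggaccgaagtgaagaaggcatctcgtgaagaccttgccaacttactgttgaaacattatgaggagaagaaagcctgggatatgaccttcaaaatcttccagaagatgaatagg

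Nlrp9a and Nlrp9b differed at 21 of their first 120 coding bases, again in capitals, and shared a longest run of 129 bases at positions 589 to 717.
Nlrp9a: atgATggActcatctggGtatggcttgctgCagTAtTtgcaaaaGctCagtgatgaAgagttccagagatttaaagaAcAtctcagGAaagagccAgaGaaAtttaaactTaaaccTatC
Nlrp9b: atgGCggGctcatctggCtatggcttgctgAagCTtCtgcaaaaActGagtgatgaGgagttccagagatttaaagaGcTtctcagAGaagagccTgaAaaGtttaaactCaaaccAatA

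**Figure D1:**
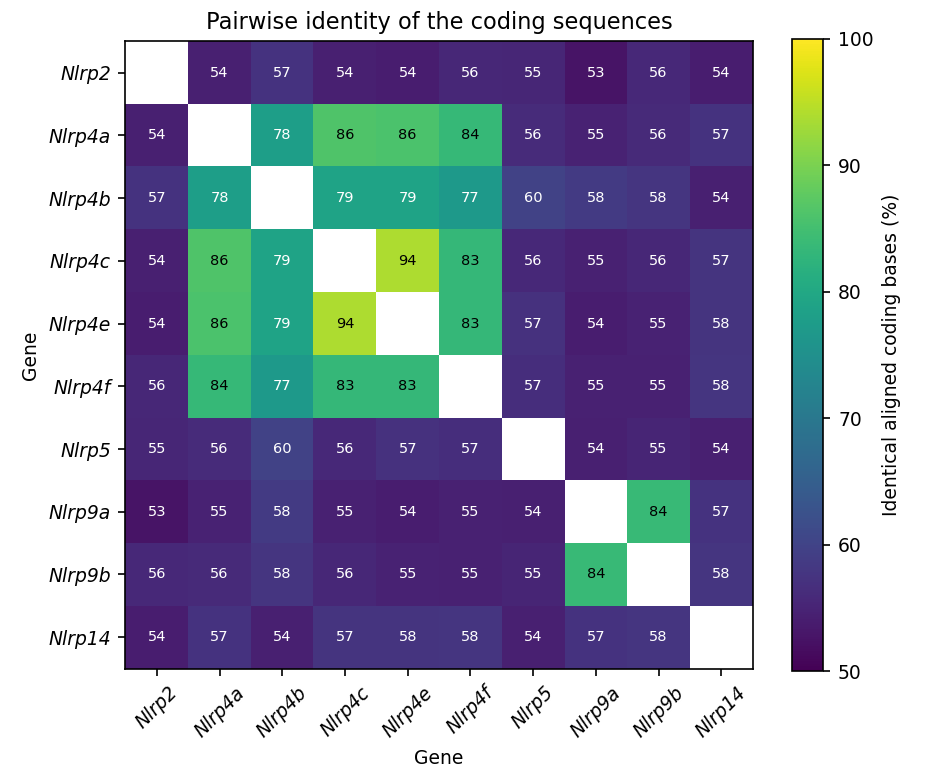
Percent of identical aligned bases between the coding sequences of each pair of the 10 genes, on a colour scale that runs from 50% to 100%. The Nlrp4 genes form a block of close relatives with Nlrp4c and Nlrp4e at 93.9%, and Nlrp9a stands with Nlrp9b at 83.7%.

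Over whole transcripts, 36.7% of the stretches of 50 bases in Nlrp4e also occur in transcripts of another gene, and 10.7% of those in Nlrp4c. Nlrp4c and Nlrp4e share such stretches with each other and with predicted genes such as Gm16443. The share was 7.79% for Nlrp9b, 6.55% for Nlrp5, 6.07% for Nlrp9a and 5.95% for Nlrp4f. For Nlrp14 and Nlrp4b it was 0%. With stretches of 150 bases only Nlrp4e (3.38%) and Nlrp5 (0.405%) shared any. The sources used here give neither the read length nor the treatment of reads that fit several genes, so how reads were divided between such genes is uncertain, most of all for Nlrp4e and Nlrp4c. Nlrp2 overlaps the predicted gene Gm5065 on the opposite strand, which had 27 and 17 counts in ++Oxtr replicates 3 and 4 and 36 and 8 counts in WT replicates 5 and 6.

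By the deposited positions, 9 of the 10 members lie on chromosome 7. Nlrp2 runs from 5301546 to 5354034 on the minus strand, and Nlrp4c from 6048160 to 6108149 on the plus strand. Nlrp4b (10421716 to 10464095), Nlrp9b (19725390 to 19807231), Nlrp4e (23000617 to 23061702) and Nlrp5 (23085314 to 23141347) follow on the plus strand. Nlrp4a (26134538 to 26175567) and Nlrp9a (26234448 to 26275040) lie near each other on the same strand, and Nlrp14 lies apart (106766197 to 106797309). Nlrp4f alone is on chromosome 13 (65324925 to 65353791, minus strand). The table names no build. The submitters' processing notes name mm10, yet 0 of 10 members had the start and end given in GENCODE M21 on that build, while all 10 had its chromosome and strand.

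RefSeq promoter windows on GRCm38.p6 matched 9 of the 10 members, all except Nlrp14, with 12 windows in all. Of these windows, 250 bases before the transcript start were searched on both strands. The box CCAAT was in 8 of the 12, against 33.8% of 32851 windows of all genes. The E-box CANNTG, the kind of site FIGLA binds, was in 10 of the 12, against 66.2%. The homeobox-type sites TAATTA and TAATTG, of the kind NOBOX binds, were in 2 windows each, against 4.84% and 7.17%. The TATA box TATAAA was also in 2 windows, against 12.4%. A match here is only a match of letters. The windows of Nlrp4a, Nlrp4b and Nlrp4c are shown because they share a run of 12 bases, CCAATCACATGG, in capitals below, in which an E-box directly follows the CCAAT box. The CCAAT box was added to the search after these sequences were seen.
Nlrp4a, chr7:26435364-26435613, plus strand: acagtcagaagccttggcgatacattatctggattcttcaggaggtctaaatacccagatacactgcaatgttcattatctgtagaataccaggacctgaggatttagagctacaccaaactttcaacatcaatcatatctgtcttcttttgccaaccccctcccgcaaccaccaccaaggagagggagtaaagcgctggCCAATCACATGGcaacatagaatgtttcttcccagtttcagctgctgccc
Nlrp4b, chr7:10687543-10687792, plus strand: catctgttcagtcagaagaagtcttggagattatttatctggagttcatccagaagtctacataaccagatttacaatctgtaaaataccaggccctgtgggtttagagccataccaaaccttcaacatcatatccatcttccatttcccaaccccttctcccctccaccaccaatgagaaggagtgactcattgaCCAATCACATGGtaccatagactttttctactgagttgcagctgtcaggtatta
Nlrp4c, chr7:6044911-6045160, plus strand: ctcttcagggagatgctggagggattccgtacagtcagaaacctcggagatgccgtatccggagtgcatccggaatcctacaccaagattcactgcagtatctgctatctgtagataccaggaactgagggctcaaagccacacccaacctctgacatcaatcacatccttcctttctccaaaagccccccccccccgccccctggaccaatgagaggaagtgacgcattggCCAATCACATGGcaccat

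The run ends 39, 43 and 7 bases before the start in the windows shown of Nlrp4a, Nlrp4b and Nlrp4c. RefSeq gives Nlrp4a and Nlrp4b a further window each. The windows shown were chosen for the longest run common to the genes, with ties going to the lower position. The further window of Nlrp4b holds the run further from its start, and that of Nlrp4a has no CCAAT box. The run was in 6 of the 32851 windows (0.0183%), which belong to Nlrp4a, Nlrp4b, Nlrp4c, Dcxr and Oscp1.

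Each library held 15229810 to 16517764 counts. Oxtr stood at 109 and 161 CPM (counts scaled to library size with the TMM method) in ++Oxtr replicates 3 and 4, against 29.2 and 55.5 CPM for WT replicates 5 and 6. Both ++Oxtr values were above both WT values, with a log2 difference of 1.68 ± 0.39 (SE, adjusted p = 1 in edgeR's quasi-likelihood test). Oocyte markers were present in all libraries, with 7 markers summing to 500 and 249 CPM in ++Oxtr and 364 and 340 CPM in WT. Adipocyte markers (7 genes) summed to 1109 and 775 CPM in ++Oxtr and 107 and 119 CPM in WT, and the RNA extraction protocol in the labels names white adipose tissue although every library is labelled ovary. DESeq2 called 7 of these 7 genes, against 0.451% of all genes, and edgeR 0, against 0%. The part of these adipocyte genes in the NLRP values was not tested. Oviduct epithelium markers (6 genes) summed to 26.1 and 2960 CPM in ++Oxtr and 2347 and 944 CPM in WT. Luteal markers (6 genes) summed to 866 and 837 CPM in ++Oxtr and 440 and 5333 CPM in WT. Macrophage markers (5 genes) summed to 765 and 517 CPM in ++Oxtr and 609 and 377 CPM in WT. No marker of these lists was at 0 in all libraries.

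Per length, the members kept a fixed order of levels. In deposited FPKM (counts scaled to gene length and to the library total), Nlrp14 stood at 40.5 ± 11.3 over all 4 libraries (SD, n = 4) and Nlrp5 at 23.3 ± 6.60. Nlrp4f followed at 8.61 ± 2.98, Nlrp9b at 5.01 ± 1.31 and Nlrp4a at 3.60 with a range of 2.64 to 4.81. Then came Nlrp4b at 2.72 ± 0.536, Nlrp2 at 2.49 ± 0.635, Nlrp9a at 2.06 ± 0.422, Nlrp4e at 1.42 ± 0.662 and Nlrp4c at 0.543 ± 0.146. All 10 members kept the same rank in each of the 4 libraries. Across libraries the ranges of neighbours in this order overlapped, except between Nlrp5 and Nlrp4f and between Nlrp4e and Nlrp4c. Among 16184 genes detected in every library, Nlrp14 had rank 1029 by mean FPKM, Nlrp5 rank 2265 and Nlrp4c rank 14015.

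**Figure D2:**
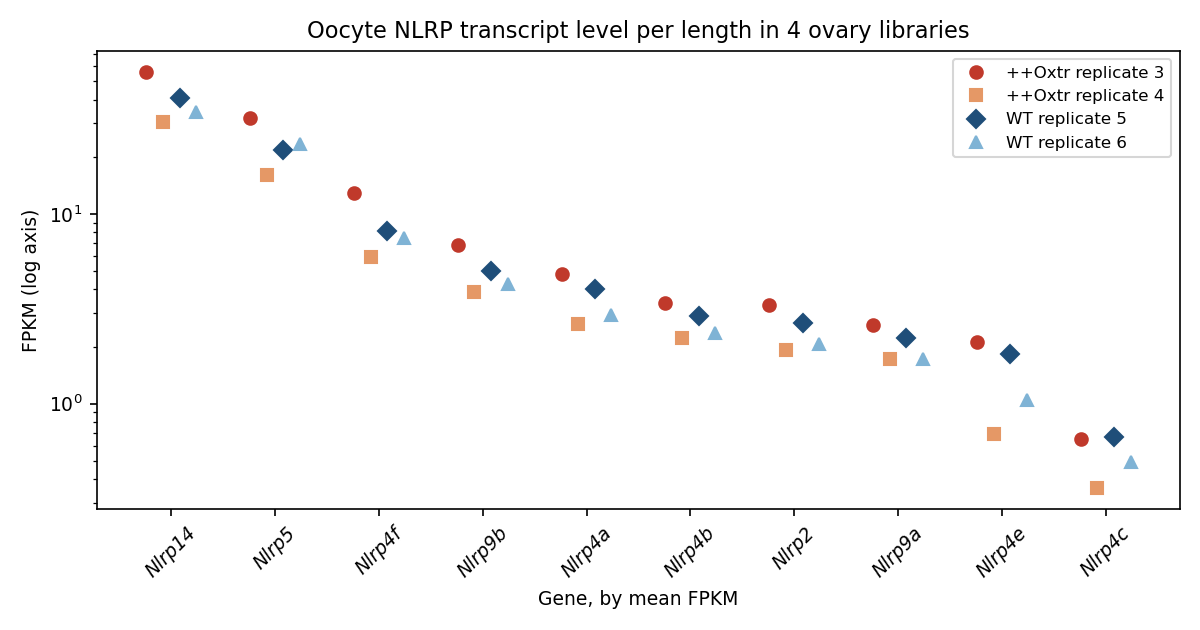
FPKM on a log axis for each of the 10 genes, ordered by mean level, with 1 point per library and the ++Oxtr libraries to the left. The order of the genes is the same in every library, and ++Oxtr replicate 3 is highest and ++Oxtr replicate 4 lowest for most genes.

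Between genotypes no member differed beyond the spread between libraries. All 10 passed the filter on low counts, and edgeR's quasi-likelihood test called 0 of 10 at an adjusted p of 0.05, where it called 0% of 15311 genes. At an unadjusted p under 0.05 it gave 0 of 10, against 2.57% of all genes. DESeq2 called 0 of 10, against 0.451%, and limma-voom 0 of 10, against 0%. The log2 difference, ++Oxtr minus WT, was positive for 8 members, where 49.2% of all genes were positive, and negative for Nlrp4c and Nlrp4e. It ran from -0.19 to 0.27 with a median of 0.13, and the median of all genes tested was 0.00 to 2 decimals (-0.0033). The groups overlapped for all 10 members, so 0 of 10 stood apart, against 26.1% of all genes. In whole ovary, fewer oocytes and less transcript per oocyte cannot be told apart.

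The 95% intervals were wide. They reached from a difference of -1.81 (Nlrp4e) to 1.74 (also Nlrp4e) on the log2 scale, and all 10 held 0. The intervals of Nlrp4b (-0.73 to 0.92) and Nlrp5 lay within a 2-fold difference in either direction. Those of the 8 other members reached past a 2-fold higher level in ++Oxtr, and those of Nlrp4c and Nlrp4e also past a 2-fold lower level.

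Nlrp14, an oocyte member that mouse eggs need for development after fertilisation, was at 196 and 111 CPM in ++Oxtr replicates 3 and 4, against 141 and 123 CPM in WT replicates 5 and 6. The ++Oxtr libraries lay on either side of both WT libraries. The log2 difference was 0.22 ± 0.30 (SE, adjusted p = 1 in edgeR's quasi-likelihood test, interval -0.60 to 1.03).

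Nlrp5, the core gene of the subcortical maternal complex, was at 153 and 79.7 CPM in ++Oxtr replicates 3 and 4, against 103 and 115 CPM in WT replicates 5 and 6. Again both WT libraries lay between the ++Oxtr libraries. The log2 difference was 0.09 ± 0.33 (SE). Nlrp5 was the only member with less transcript in WT replicate 5 than in WT replicate 6, at a ratio of 0.899 (95% exact conditional interval 0.841 to 0.960, counting error only).

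Nlrp4f, whose protein joins the same complex in mouse oocytes, was at 49.1 and 23.6 CPM in ++Oxtr replicates 3 and 4, against 30.9 and 29.4 CPM in WT replicates 5 and 6. The WT libraries were close to each other and lay inside the range of the ++Oxtr libraries. Its log2 difference of 0.27 ± 0.38 (SE) was the largest of the family and did not pass (edgeR adjusted p = 1). Nlrp2, a maternal-effect gene tied to imprinting in mouse embryos, was at 11.5 and 6.88 CPM in ++Oxtr and at 9.16 and 7.35 CPM in WT. Its log2 difference was 0.15 ± 0.37 (SE).

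The remaining Nlrp4 genes are paralogs known chiefly from oocytes and early embryos. Nlrp4a was at 23.0 and 13.1 CPM in ++Oxtr replicates 3 and 4, against 19.0 and 14.3 CPM in WT replicates 5 and 6. Nlrp4b was at 15.0 and 10.2 CPM in ++Oxtr and at 12.8 and 10.7 CPM in WT. Both genes had the same order of libraries, with both WT values inside the ++Oxtr range. Nlrp4e was at 7.06 and 2.40 CPM in ++Oxtr and at 6.13 and 3.58 CPM in WT, from 109, 36, 103 and 57 counts in that order of libraries. Nlrp4c was at 2.59 and 1.47 CPM in ++Oxtr and at 2.62 and 2.01 CPM in WT, from 40, 22, 44 and 32 counts. These are the closest paralogs of the family and the members with negative differences, -0.04 ± 0.66 (SE) for Nlrp4e and -0.19 ± 0.50 (SE) for Nlrp4c. The part that shared sequence plays in those values was not tested.

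Nlrp9b was at 25.1 and 14.8 CPM in ++Oxtr replicates 3 and 4, against 18.3 and 16.1 CPM in WT replicates 5 and 6. Its paralog Nlrp9a was at 8.87 and 6.14 CPM in ++Oxtr and at 7.61 and 6.03 CPM in WT. Nlrp9a was the only member whose lowest value fell in WT replicate 6, and the difference from ++Oxtr replicate 4 was small. Nlrp9c, a further gene of that cluster which is not among the 10 members, was at 10.2 and 5.81 CPM in ++Oxtr and at 9.04 and 7.47 CPM in WT. Nlrp4d and Nlrp4g, on the same list of reproductive NLRP genes, were looked up but had no entry among the 21958 genes.

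The direction of the difference depended on which ++Oxtr library was used. Without ++Oxtr replicate 3, 0 of 10 members were positive, against 49.3% of all genes, and their median log2 difference was -0.31. Without ++Oxtr replicate 4, all 10 were positive, against 48.2% of all genes, with a median of 0.48. Leaving out WT replicate 5 gave 10 positive (52.3% of all genes) and a median of 0.31, and leaving out WT replicate 6 gave 5 positive (50.2%) and a median of -0.01. At an unadjusted p under 0.05 there was 1 member of 10 without ++Oxtr replicate 3, where 3.56% of all genes passed, and 3 of 10 without ++Oxtr replicate 4, where 8.74% did. There were 0 of 10 without WT replicate 5 (4.16%) and 0 of 10 without WT replicate 6 (1.73%). In none of these 4 fits did a member pass over all genes tested in edgeR, and the smallest adjusted p was 0.323, without ++Oxtr replicate 4.

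**Figure D3:**
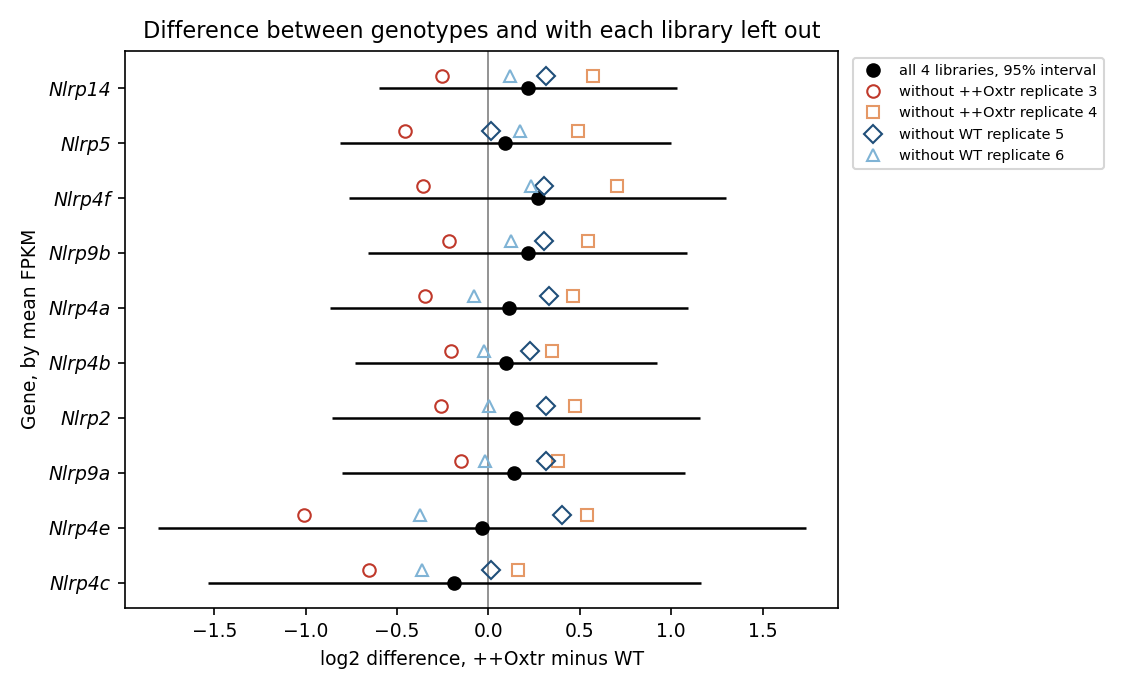
Log2 difference of each gene, ++Oxtr minus WT, in edgeR's fit of all 4 libraries (black point, with its 95% interval as a line) and with each library left out (open symbols). All 10 intervals cross 0, and the values lie below 0 for every gene without ++Oxtr replicate 3 and above 0 for every gene without ++Oxtr replicate 4.

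All 10 members had more transcript in ++Oxtr replicate 3 than in ++Oxtr replicate 4, against 50.5% of all genes with counts in both. The median ratio of the members was 1.76. The ratio ran from 1.44 (Nlrp9a, 95% interval 1.10 to 1.90) and 1.47 (Nlrp4b, 1.19 to 1.82) to 2.08 (Nlrp4f, 1.83 to 2.37) and 2.94 (Nlrp4e, 2.0 to 4.41). Nlrp14 had 1.77 (1.67 to 1.88) and Nlrp5 1.92 (1.79 to 2.06). Every interval lay above 1, though the intervals cover counting error only. The ratio exceeded 2-fold for 2 of 10 members, against 3.55% of all genes. In WT, 9 of 10 members were higher in replicate 5 than in replicate 6, against 52.5% of all genes with counts in both. The median ratio of the members was 1.22, and the highest was 1.71 for Nlrp4e (1.23 to 2.41).

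A pattern with the highest value in ++Oxtr replicate 3 and the lowest in ++Oxtr replicate 4 held for 8 of 10 members, against 11.8% of all genes tested. Other oocyte genes shared it. Of 18 genes on the oocyte reference list, 17 had it, as did 4 of 5 partners of the subcortical maternal complex (Ooep, Khdc3, Tle6, Padi6 and Zbed3). It was found in 2 of 15 tested genes of inflammasomes and 0 of 6 other NLR genes. Oviduct epithelium markers ran the other way in these libraries, with the low sum of 26.1 CPM in ++Oxtr replicate 3, and smooth muscle markers (4 genes) summed to 1591 and 3725 CPM in ++Oxtr replicates 3 and 4. The sum of granulosa cell markers (8 genes) was near level in ++Oxtr, at 4331 and 4496 CPM, with 3843 and 4811 CPM in WT. Single granulosa markers went both ways, and 4 of 8 were higher in ++Oxtr replicate 3 than in replicate 4. Their log2 ratios of replicate 3 over replicate 4 ran from -1.62 to 0.92, and 1 of 8 had the pattern of the NLRP genes. The part of tissue make-up in the NLRP values was not tested.

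**Figure D4:**
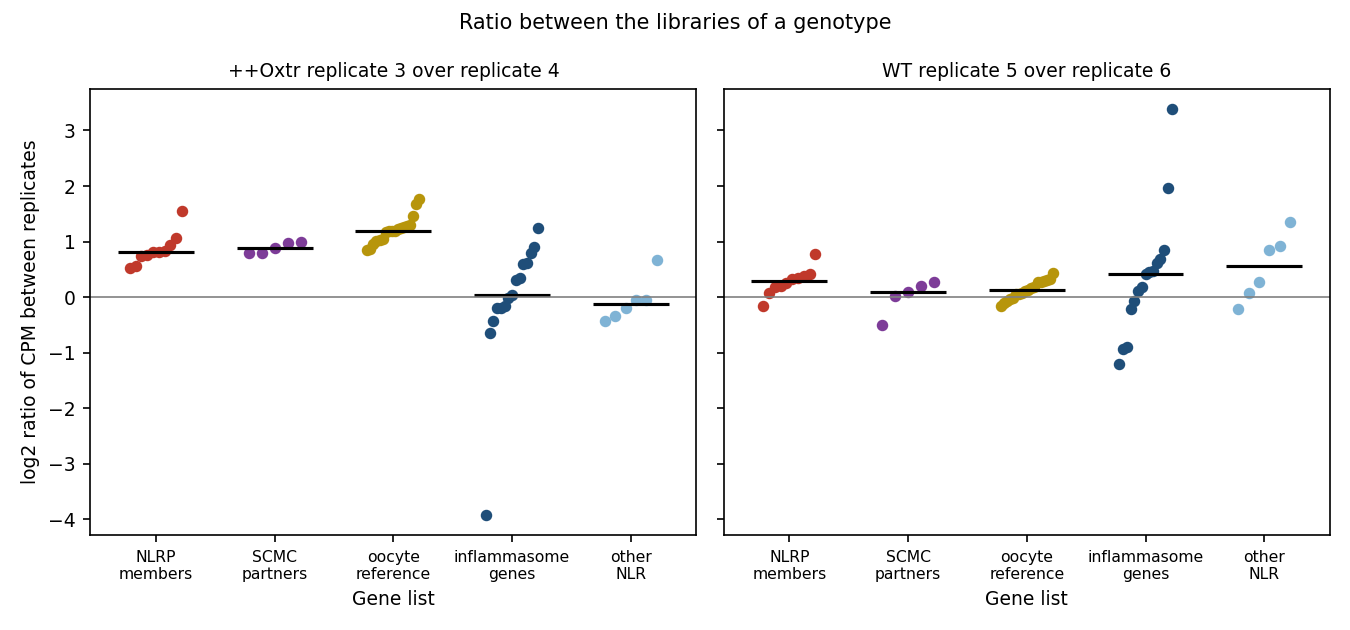
Log2 ratio of CPM between the libraries of a genotype, ++Oxtr replicate 3 over replicate 4 on the left and WT replicate 5 over replicate 6 on the right, with 1 point per gene tested and a bar at the median of each list. The 10 NLRP genes, the partners of the subcortical maternal complex (SCMC) and the oocyte reference genes all lie above 0 on the left. There, genes of inflammasomes lie on both sides of 0, and 1 of 6 other NLR genes lies above 0.

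The median ratio between the ++Oxtr libraries was 1.76 for the NLRP genes and 2.28 for the oocyte reference list. On that list 15 of 18 genes were over 2-fold higher in ++Oxtr replicate 3, among them the oocyte growth factor gene Gdf9 (2.27). The germ cell helicase gene Ddx4 (3.42) and the RNA-decay adaptor gene Btg4 (3.21), also over 2-fold, are named after their values were seen. The egg coat gene Zp2 had 1.79, close to Nlrp14. The median of the complex partners was 1.84, with Zbed3 at 1.73. Whether the lists differ was not tested, since genes of 1 library pair are not replicates.

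Set against the 18 genes of the oocyte reference list, the summed NLRP level was even between the WT libraries. The members together had 491 and 269 CPM in ++Oxtr replicates 3 and 4, and 351 and 327 CPM in WT replicates 5 and 6. They took 0.0498% and 0.0263% of the ++Oxtr library counts and 0.0358% and 0.0324% of the WT library counts. Divided by the summed CPM of the 18 reference genes, the level was 0.607 and 0.708 in ++Oxtr and 0.617 and 0.622 in WT. The ++Oxtr replicate with the least NLRP transcript therefore had the most relative to these 18 genes, and the other 3 libraries lay within a narrow range. This depends on the reference list. The 5 partners of the subcortical maternal complex, not on that list, summed to 634 and 342 CPM in ++Oxtr and 473 and 425 CPM in WT. A ratio to the partners was not tested. The log2 difference was 0.10 for the sum and 0.08 for the ratio, each with p = 1 in a two-sided exact permutation test over the 4 libraries, a design that cannot go below 0.333.

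Nlrp14 and Nlrp5 led the family in every library. They took 71.1% and 70.8% of the family's read counts in ++Oxtr replicates 3 and 4, and 69.6% and 72.6% in WT replicates 5 and 6. The Nlrp5 share was 31.1% and 29.6% in ++Oxtr, 29.4% in WT replicate 5 (95% Clopper-Pearson interval 28.2% to 30.6%) and 35.1% in WT replicate 6 (33.8% to 36.4%). WT replicate 6 was also the library with the high luteal marker sum, whose part in this was not tested. The Nlrp4e share was 1.44% in ++Oxtr replicate 3 (1.18% to 1.73%) and 0.894% in ++Oxtr replicate 4 (0.627% to 1.24%). It was 1.74% in WT replicate 5 (1.43% to 2.11%) and 1.09% in WT replicate 6 (0.829% to 1.41%). By these values both genotypes held a library with a higher and a library with a lower share of Nlrp4e. The intervals of the ++Oxtr libraries overlap, and all of them cover counting error only.

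**Figure D5:**
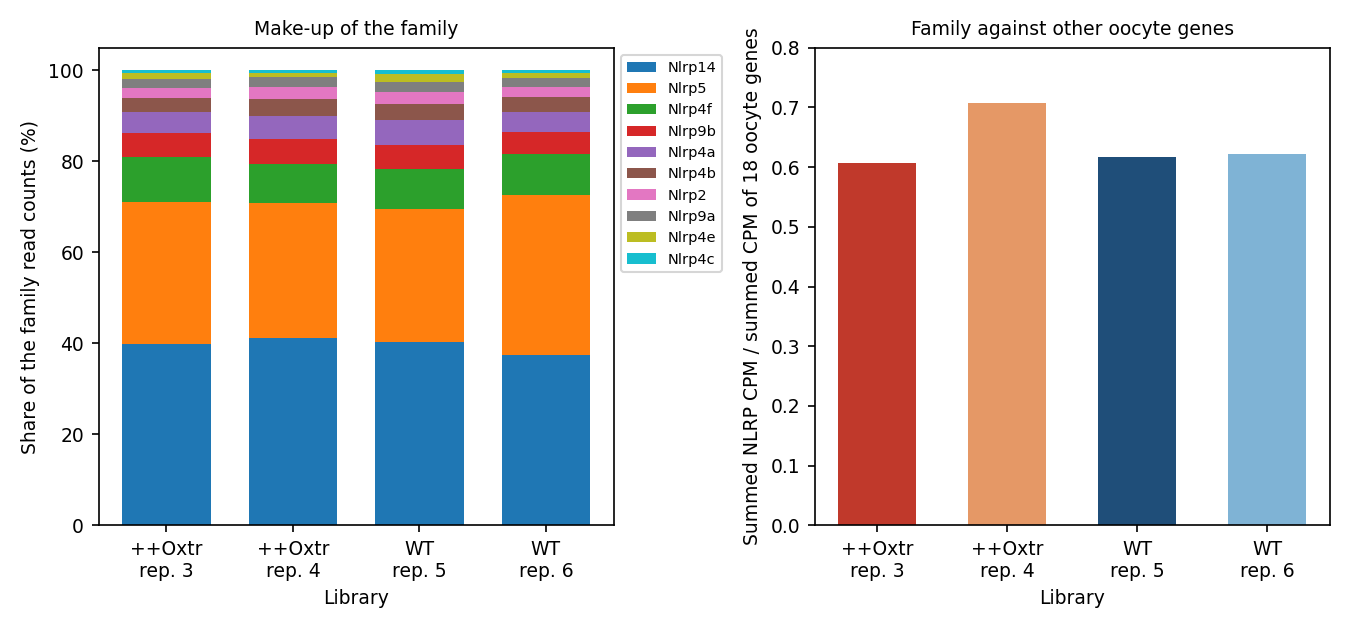
Left, share of each gene in the family's read counts per library, in percent. Right, summed NLRP CPM divided by the summed CPM of 18 other oocyte genes, with ++Oxtr replicate 4 at 0.708 and the other libraries at 0.607 to 0.622.

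Genes whose proteins work beside the NLRP proteins in the oocyte were also without a call, as were all 15311 genes tested in edgeR. Zbed3, at 260 and 150 CPM in ++Oxtr and 200 and 166 CPM in WT, was the most abundant partner, followed by Padi6, the gene of a deiminase-family protein of the oocyte lattices. All 5 partners had positive differences with a median of 0.15, where 49.2% of all genes were positive. In edgeR 0 of 5 were called, against 0% of all genes. Khdc3, the gene of the complex member FILIA, had a log2 difference of 1.19 ± 0.53 (SE, edgeR adjusted p = 1) at 3.11 and 1.80 CPM in ++Oxtr and 0.892 and 1.26 CPM in WT, and is named after its values were seen. Unlike in the NLRP members, both its ++Oxtr values were above both WT values, from 48, 27, 15 and 20 counts in that order of libraries. The groups stood apart, in either direction, for 26.1% of all genes. Of the 18 oocyte reference genes, 14 were positive with a median of 0.15, and 0 were called, with the same shares of all genes beside them.

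NLR genes known from immune and epithelial cells were also without a call in edgeR, which called 0% of all genes. Of 16 genes of inflammasomes and their partners, 15 were tested and 0 called in edgeR. Of these, 7 were positive, where 49.2% of all genes were, and the median log2 difference was 0.00 (-0.0042). Naip5, a sensor of bacterial flagellin, was at 9.0 and 12.1 CPM in ++Oxtr and at 37.4 and 9.54 CPM in WT, so that WT replicate 5 stood apart. Nlrp10 was at 15.5 and 10.2 CPM in ++Oxtr and 7.73 and 17.9 CPM in WT. Nlrp3, the best known inflammasome sensor, is named after its values were seen. It was at 2.91 and 1.94 CPM in ++Oxtr and 2.38 and 2.20 CPM in WT. Nlrp6, an epithelial member named after its values were seen, was at 0.712 and 10.8 CPM in ++Oxtr and 5.59 and 5.90 CPM in WT, low in the same library as the oviduct markers. Among 6 other NLR genes 0 were called, with Nod1, a sensor of bacterial cell wall fragments, at 58.5 and 60.7 CPM in ++Oxtr and 55.2 and 45.9 CPM in WT. Nlrc5, a regulator of MHC class I genes, was at 24.2 and 15.3 CPM in ++Oxtr and 44.8 and 23.7 CPM in WT, with a log2 difference of -0.79.

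The genes with a profile most like that of the summed family were sought among 11300 others with a mean of at least 10 CPM, by the root mean square distance of centred log2(CPM + 1) over the 4 libraries. The 6 nearest were Arxes2 (0.015), Ccm2l (0.022), Tex14 (0.024), Alpk3 (0.028), Spc24 (0.028) and Ooep (0.030). Arxes2 was at 76.8 and 41.7 CPM in ++Oxtr and at 55.7 and 50.3 CPM in WT. Ooep, a gene of the subcortical maternal complex, was at 40.5 and 20.6 CPM in ++Oxtr and 28.4 and 26.7 CPM in WT. Among oocyte genes of the lists, the nearest after Ooep were Tle6 at rank 17, Zbed3 at 20, Zp2 at 25 and Padi6 at 26. The remaining oocyte genes of the lists among these 11300 ran from rank 35 to rank 442, with Gdf9 at 215. The exceptions were Oosp1 at rank 1001, Ddx4 at 2312 and Btg4 at 5735. Single members were themselves at distances from 0.049 (Nlrp14) to 0.26 (Nlrp4e). The profile has only 4 points, 1 per library.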

How the data were processed

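The authors deposited 1 table with read counts and FPKM per gene for 4 libraries. Per the file headers these are read counts, and their values are whole numbers; the deposited FPKM are scaled to gene length and library total by the authors. Per the labels, libraries were made from total RNA with an NEBNext Ultra II kit. Per the submitters' processing notes the build is mm10. The sources used here name no aligner, counter, strand setting or annotation. Groups and replicate numbers came from the sample titles.

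The counts of all genes were tested with edgeR 4.0.16 (R 4.3.3) by the quasi-likelihood test, with TMM scaling, filterByExpr with a minimum count of 10, and Benjamini-Hochberg adjustment over 15311 genes (common dispersion 0.104, 2 residual degrees of freedom). The standard error is the difference over the root of F. Single values per library were compared by exact permutation. Alternatives used DESeq2 1.42.0, limma 3.58.1 (voom, and trend on log2 FPKM), other scalings and filters, and each library left out. The tests were checked on simulated counts. Depth of 15229810 to 16517764 counts makes 3 counts worth 0.182 to 0.197 CPM. Intervals of log2 differences come from edgeR's standard error and hold the variation between libraries, while those of ratios between replicates and of shares cover counting error only.

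The rule for named genes took the 10 members, the called and 2 most abundant genes of each list, and the 6 genes nearest in profile. Marker lists are given as sums, with a range of ratios for the granulosa markers. Khdc3, Tle6, Oosp1, Ddx4, Btg4, Nlrp3 and Nlrp6 are named outside the rule, after their values were seen. H1foo was matched to the table by gene identifier. The members and lists were chosen with earlier results of these data known. The ratios between replicates, the CCAAT box and the sequence comparisons were chosen after the data were seen. Promoter windows are RefSeq's, and coding sequences are the longest coding transcript of each gene in GENCODE M21, aligned globally.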

Additional observations from a re-analysis of the deposited data

How the results depend on the processing

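No paired analysis was possible because the groups share no replicate number. No member was called under any of the 13 alternatives. The count of calls over all genes was 0 in edgeR and 69 with DESeq2 (66 higher, 3 lower). It was 0 to 65 with each library left out, the 65 (7 higher, 58 lower) coming without ++Oxtr replicate 4. Under the 9 alternatives that kept all libraries, every member kept its direction. Nlrp4c had no value in the FPKM fits with a minimum mean of 1. Leaving out each library in turn reversed directions. The log2 difference then ran from -0.26 to 0.47 for Nlrp2, -0.35 to 0.46 for Nlrp4a, -0.21 to 0.35 for Nlrp4b, -0.65 to 0.16 for Nlrp4c, -1.01 to 0.54 for Nlrp4e, -0.36 to 0.70 for Nlrp4f, -0.45 to 0.49 for Nlrp5, -0.15 to 0.38 for Nlrp9a, -0.22 to 0.54 for Nlrp9b and -0.26 to 0.57 for Nlrp14. The summed level ran from -0.33 to 0.54 and the level relative to other oocyte genes from -0.030 to 0.19. In these fits the group with 1 library is assumed to vary like the other. The sum gave 0.06 to 0.10 and the ratio 0.0011 to 0.11 under the other alternatives. Depth limits Nlrp4c most, at 22 to 44 counts per library.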
